A study of Fundulus heteroclitus with 15 samples.

Results

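Probes for the enzymes of glycolysis, gluconeogenesis and the citrate cycle were examined in liver RNA from the mummichog (Fundulus heteroclitus), a killifish of salt marshes. They were taken by name from the array's design: every probe whose annotated name held 1 of a fixed set of enzyme words such as aldolase, enolase, pyruvate, isocitrate or citrate synthase. This gave 100 of the 7152 probes on the array, lying on 91 sequence contigs and standing for 46 enzymes. The array's annotation gives contig identifiers and old protein names, and no genome was used, so no genomic positions are stated. Of the 100 probes, 11 probes of 9 enzymes met the rule by a word in their name alone (for example macrophage migration inhibitory factor, a cytokine annotated with the synonym phenylpyruvate tautomerase). They are described last.

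The fish were kept for 14 days in water with 50 ng/L EE2 (the low dose), 250 ng/L EE2 (the high dose) or no treatment, per the labels, with 5 liver samples in each of the 3 groups. EE2 is ethinylestradiol, the synthetic estrogen of contraceptive pills. All animals were adult females. The labels call the arrays biological replicates and do not say which strain or site the fish came from, whether the untreated water held a solvent, when the fish last fed, or whether livers were pooled. Each sample gave 1 Agilent 1-colour array (Cy3), and the 15 arrays lay on 2 slides that both held all groups. Of the control, 50 and 250 ng/L groups, slide 1 carried 2, 2 and 3 arrays and slide 2 the rest. Arrays are numbered here within each group in the order the samples are listed. The labels give no such numbers, so a shared number does not link arrays of different groups.

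Glycolysis splits glucose into pyruvate and gives ATP, and gluconeogenesis, a main task of the liver, runs back from pyruvate to glucose. Most steps are shared and reversible. Glucokinase, phosphofructokinase and pyruvate kinase work only downward, and phosphoenolpyruvate carboxykinase, fructose-1,6-bisphosphatase and glucose-6-phosphatase only upward. Pyruvate enters the citrate cycle through pyruvate dehydrogenase or becomes lactate through lactate dehydrogenase. In teleost females estrogen directs the liver to make egg yolk precursors, a costly export of protein and lipid.

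The level of a probe is its log2 processed signal minus the log2 75th percentile of its array, so a level of 0 is the signal at that percentile. Levels of different probes cannot be set against each other. A shift is the difference of 2 group means of levels, with its standard error (SE) from a limma fit to all 15 arrays, and adjusted p-values are Benjamini-Hochberg values over all 6145 probes tested, with a threshold of 0.05. The 75th percentile signal of the arrays ran from 542 to 3583, and 75.6 to 91.7% of probes were well above background. In whole liver RNA, a lower level from fewer cells of a type cannot be told apart from less RNA per cell. Striated muscle and exocrine pancreas markers were present in these samples. Of 68 muscle probes 38 were tested, and 10, telethonin among them, were well above background on no array. All 60 probes for digestive enzymes of the exocrine pancreas were tested. Their shifts were above 0 for 49 of 60 at 50 ng/L (median 0.96) and 51 of 60 at 250 ng/L (median 1.1), with 0 past the threshold. Of the 38 muscle probes 23 and 28 lay above 0 (medians 0.09 and 0.23), 0 past the threshold. Of 12 tested leukocyte probes 10 lay below 0 at 50 ng/L (median -0.43) and 8 at 250 ng/L (median -0.20, 1 lower past the threshold). Among 34 tested hepatocyte probes, 1 passed the threshold at each dose, with medians of 0.08 and 0.06. All 3 probes for insulin and somatostatin of the endocrine pancreas lay above 0 at both doses (medians 0.30 and 0.88), 0 past the threshold. Of 13 tested red blood cell probes 6 and 5 lay above 0 (medians -0.04 and -0.06), with 1 lower past the threshold at 250 ng/L.

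None of the 43 enzymes with a tested probe passed the test at either dose. Of the 100 probes, 86 passed the filter on dim probes (well above background on 5 or more arrays) and were tested; 78 of the 100 did so on all 15 arrays. At 50 ng/L, 0 of 86 passed in the limma fit, where 0.537% of all probes did. At 250 ng/L, 0 of 86 passed against a background of 2.69%, and between the doses 0 of 86 against 1.07%. At an unadjusted p under 0.05 the counts were 6, 11 and 3 of 86 (6.98%, 12.8% and 3.49%), beside 4.04%, 13.5% and 8.04% of all probes. The 11 probes taken by name alone held 4, 4 and 1 of these, so at 50 ng/L 4 of the 6 were not enzymes of the pathway. The shares of the 86 probes at either dose against control lie near the background, and the share between the doses lies below it.

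The intervals give the range of differences these arrays allow. At 50 ng/L, 61 of the 86 probes had a 95% interval of the shift that lay wholly within a 2-fold difference in either direction (70.9%, beside 65.1% of all probes). For the high dose there were 52 such probes (60.5%, beside 55.5%), and between the doses 58 (67.4%, beside 59.8%). The half-width of the interval was 0.59 log2 at the median probe, before any adjustment for multiple tests. The adjusted threshold asks for more than an interval that leaves out 0, so shifts above this size could also go undetected with 5 arrays a group. The shifts themselves ran from -1.23 to 1.18 at 50 ng/L and from -1.0 to 1.40 at 250 ng/L.

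**Figure D1:**
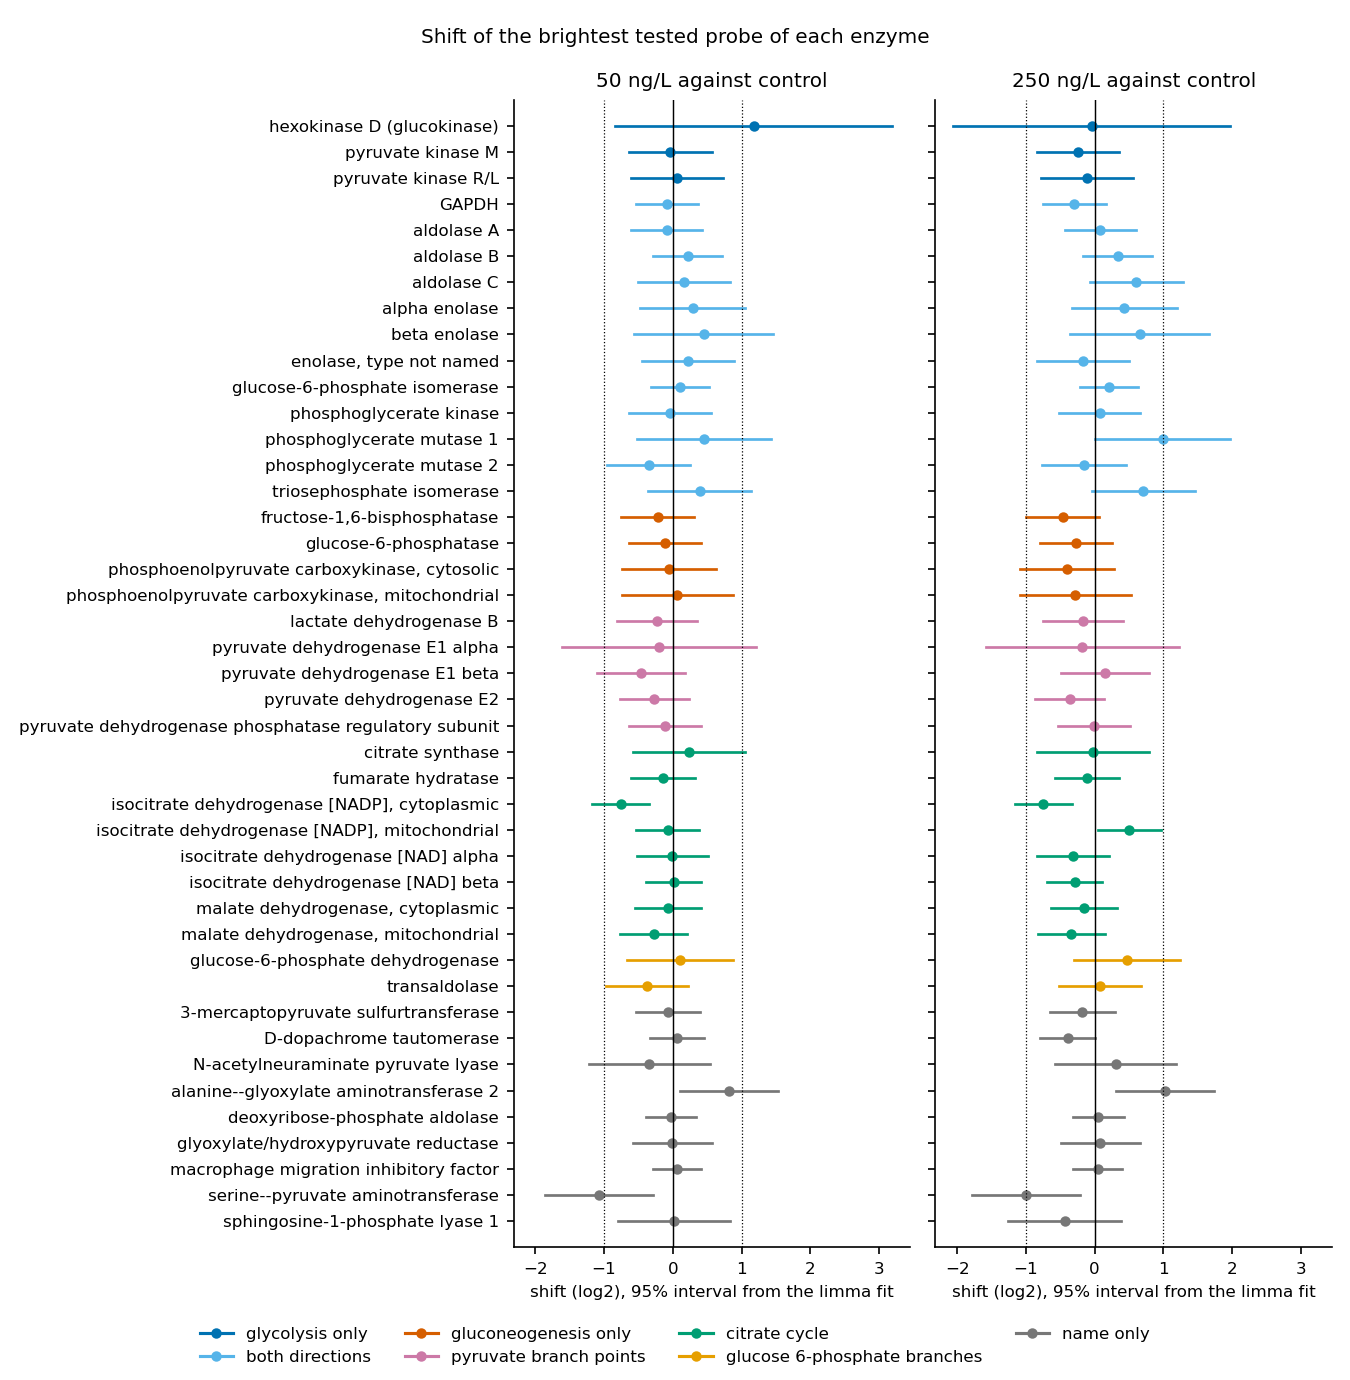
Shift (log2) of the brightest tested probe of each of 43 enzymes at 50 ng/L (left) and 250 ng/L (right) against control; points are limma estimates from 5 arrays a group, bars are 95% intervals and dotted lines mark a 2-fold difference. Most intervals cross 0 and lie between the dotted lines; those of cytoplasmic NADP-dependent isocitrate dehydrogenase (-0.76 and -0.74) and serine--pyruvate aminotransferase (-1.07 and -1.0) lie below 0 at both doses and that of alanine--glyoxylate aminotransferase 2 (0.81 and 1.02) above it.

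The distribution of all 86 shifts was close to that of the whole array at 50 ng/L. The median shift was -0.01, as it was over all probes (-0.01), with 41 probes above 0. For the high dose the median was 0.07 with 52 of 86 probes above 0 (60.5%), beside a median of -0.05 and 45.0% over all probes. Between the doses it was 0.08 with 53 above 0 (61.6%), beside -0.04 and 45.3%. Within slide 1 the medians were -0.19 for the low dose, 0.11 for the high dose and 0.31 between them, and within slide 2 they were 0.13, 0.03 and -0.11. The sign of the median at 50 ng/L and between the doses thus differed from slide to slide. The median over all probes changed sign in the same direction, at -0.11 and 0.06 at 50 ng/L and 0.04 and -0.08 between the doses. At 250 ng/L it was -0.07 within slide 1 and -0.0024 within slide 2. Single members had opposite signs on the 2 slides in 50 of 86 cases at 50 ng/L (58.1%, beside 59.3% of all probes), 34 at 250 ng/L (39.5%, beside 44.3%) and 46 between the doses (53.5%, beside 54.2%).

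**Figure D2:**
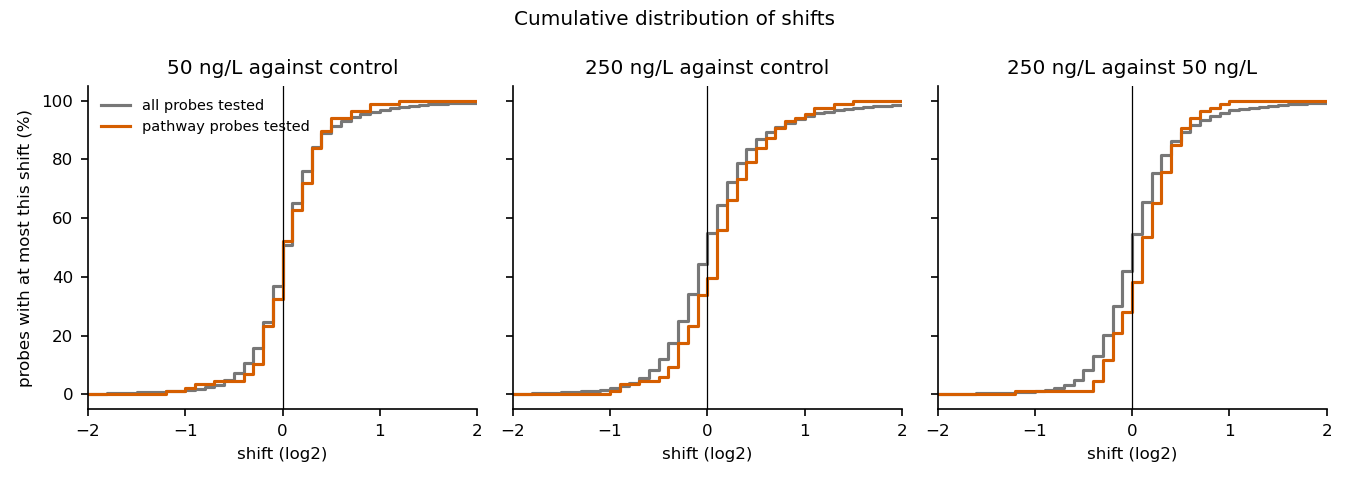
Cumulative percentage of probes (vertical axis) with at most a given shift in log2 (horizontal axis) in each of the 3 comparisons, for the 86 pathway probes tested (orange) and all 6145 probes tested (grey). The curves run together at 50 ng/L, and at 250 ng/L and between the doses the orange curve lies to the right of the grey one around 0, where 39.5% and 38.4% of pathway probes against 55% and 54.7% of all probes had a shift of at most 0.

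The enzymes that work only in glycolysis came to 13 probes of 4 enzymes, of which 9 probes were tested. Muscle-type pyruvate kinase held 7 of these 9, and glucokinase and liver-type pyruvate kinase 1 each, so the figures for this group rest mostly on 1 muscle isozyme. The median shift of the 9 probes was 0.18 at 50 ng/L and 0.12 at 250 ng/L, with 6 of 9 above 0 at each dose and 0 past the threshold. The sign at 250 ng/L turned from slide to slide, with 0.14 (7 of 9 above 0) within slide 1 and -0.25 (3 of 9) within slide 2. The slides gave 0.22 and 0.28 at 50 ng/L, and leaving out 1 array gave -0.01 to 0.25 at 50 ng/L and -0.01 to 0.31 at 250 ng/L.

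Glucokinase (named hexokinase D on the array), the liver enzyme that traps glucose as glucose 6-phosphate and in mammals follows feeding through insulin, varied more between arrays than any other of the 86 probes. On the control arrays its levels were -3.67, 0.38, -0.69, -1.70 and 0.47, at 50 ng/L 1.97, -0.38, -0.98, 0.20 and -0.13, and at 250 ng/L 1.0, -2.23, -3.97, 0.28 and -0.50. The lowest and highest arrays lay 61.6-fold apart, and very low arrays occurred in the control group and at 250 ng/L. The pooled SD within groups was 1.66 log2, larger than that of 97.2% of all probes tested. The shifts were 1.18 ± 0.94 (SE) and -0.04 ± 0.94, with 95% intervals from -0.84 to 3.19 and from -2.05 to 1.97, so even a 2-fold difference in either direction could not have been told from 0. Within slides the shift at 50 ng/L was 2.44 and 0.34.

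Liver-type pyruvate kinase (R/L isozymes), which makes pyruvate at the last step of glycolysis, had closely spaced group means. The control arrays gave 4.28, 3.41, 4.09, 3.76 and 4.26, those at 50 ng/L 3.79, 4.41, 3.97, 4.65 and 3.28, and those at 250 ng/L 3.12, 4.22, 4.52, 3.34 and 4.04. The groups overlapped throughout, and the shifts were 0.06 ± 0.31 and -0.11 ± 0.31.

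Muscle-type pyruvate kinase had 10 probes, of which 7 were tested. The brightest, on contig 17243, had shifts of -0.03 ± 0.28 and -0.25 ± 0.28. Over all 86 probes, 2 (2.33%) had groups that did not overlap at 250 ng/L against control, beside 4.39% of all probes tested. A dim probe on contig 17238 was the 1 member of the pathway whose arrays at 250 ng/L all lay above the controls: -5.0, -4.77, -4.97, -4.48 and -4.85, against control levels of -5.81, -5.83, -5.56, -5.36 and -5.43. At 50 ng/L it gave -4.77, -6.32, -5.04, -4.77 and -4.94. The shift at 250 ng/L was 0.78 ± 0.27 with an adjusted p of 0.18 in the limma fit. It passed under 2 of 27 alternatives: without array 2 of the 50 ng/L group (adjusted p = 0.0152) and with array weights (0.0466). Over all of them its adjusted p ran up to 0.549. Array 2 was the lowest of the 50 ng/L group, so leaving it out narrowed the spread that the groups share in the fit. The other probes of this isozyme ranged from -0.25 to 0.60 at 250 ng/L. The summed signal of the 38 muscle markers, in units of the array's 75th percentile, had medians of 2.48 in the control group (2.04 to 11.9), 5.89 at 50 ng/L (2.68 to 34) and 7.26 at 250 ng/L (3.78 to 21.6), and its part in this and other muscle isoforms was not tested. Muscle phosphofructokinase, the enzyme that commits sugar to glycolysis in that tissue, was well above background on 2 arrays and was not tested.

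The reversible steps shared by both directions came to 38 probes of 12 enzymes, 34 of them tested. For the high dose, 28 of the 34 shifts were above 0 with a median of 0.21, and at 50 ng/L 22 of 34 with a median of 0.18, none past the threshold. Over all probes 45.0% lay above 0 at 250 ng/L and 49.0% at 50 ng/L. GAPDH alone held 8 of the 34 probes. Over the 5 other scalings of the signals the median at 250 ng/L stayed between 0.18 and 0.29 with 24 to 28 above 0. Within slide 1 and slide 2 it was 0.23 and 0.14 at 250 ng/L, but -0.08 and 0.31 at 50 ng/L. Over all probes the slides gave -0.11 and 0.06 at 50 ng/L.

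Aldolase B, the liver isozyme that splits fructose 1,6-bisphosphate, was measured by 3 probes with shifts of 0.20 to 0.24 at 50 ng/L and 0.19 to 0.33 at 250 ng/L. Its brightest probe gave 6.03, 6.80, 6.58, 6.12 and 6.45 in controls, 6.52, 6.16, 7.16, 6.15 and 7.06 at the low dose and 7.06, 6.84, 6.56, 6.52 and 6.68 at the high dose. The groups overlapped, and the interval at 250 ng/L (-0.17 to 0.84) left out a 2-fold difference. Aldolase A, the muscle isozyme, had 9 probes of which 5 were tested, with shifts from -0.34 to 0.40 at 250 ng/L. Its brightest probe stood at 4.94 ± 0.36 (SD, n = 5) in controls, 4.85 ± 0.51 at the low dose and 5.02 ± 0.17 at the high dose. Aldolase C, the isozyme of brain, had shifts of 0.61 ± 0.31 and 0.23 ± 0.20 at 250 ng/L on its 2 probes.

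Glyceraldehyde-3-phosphate dehydrogenase (GAPDH), often used as a reference gene, had 8 probes, all tested. Their shifts at 250 ng/L ran from -0.36 to 0.20, and the 8 intervals (from -0.80 at the lowest to 0.78 at the highest) all left out a 2-fold difference. The brightest probe gave 5.63, 5.17, 5.35, 4.72 and 5.33 in controls, 5.08, 5.14, 5.59, 4.99 and 5.00 at the low dose and 5.17, 4.39, 5.18, 4.97 and 5.04 at the high dose, so the groups overlapped. A dimmer probe on contig 10847 stood apart from the other 7 at 50 ng/L with a shift of 0.67 ± 0.27 (unadjusted p = 0.0258, adjusted p = 1 in the limma fit).

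Triosephosphate isomerase, which interconverts the 2 three-carbon sugars, and phosphoglycerate mutase 1, 3 steps further on, shared a pattern across the control arrays. For triosephosphate isomerase the control levels were 1.41, 2.98, 0.87, 2.52 and 1.1, those at 50 ng/L 2.15, 2.06, 2.49, 1.98 and 2.15, and those at 250 ng/L 2.90, 2.11, 2.44, 2.14 and 2.83. For phosphoglycerate mutase 1 they were -1.76, 0.50, -1.72, 0.00 and -1.43 in controls, -0.67, -0.88, 0.15, -0.77 and 0.04 at the low dose and 0.24, -0.71, 1.12, 0.30 and -0.39 at the high dose. In both, control arrays 2 and 4 lay within or above the range of the exposed arrays and the other 3 controls below every exposed array. The shifts at 250 ng/L were 0.71 ± 0.35 (adjusted p = 0.41) and 0.99 ± 0.46 (adjusted p = 0.363). The second probe of each enzyme had shifts of 0.86 ± 0.45 and 1.24 ± 0.70 at 250 ng/L and the same 2 control arrays on top. Control arrays 2 and 4 lay on different slides. Their summed muscle marker signals were 6.07 and 11.9, above the 2.04 to 2.48 of the other controls. Array 2 at 50 ng/L had the highest muscle signal of all (34) without a high level of either enzyme. The part of muscle RNA in the pattern was not tested.

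The remaining shared enzymes had no shift past the threshold. Glucose-6-phosphate isomerase, at the first reversible step, had shifts of 0.21 to 0.58 on 4 probes at 250 ng/L, phosphoglycerate kinase, an ATP-forming step, 0.07 and 0.34, and phosphoglycerate mutase 2, the muscle form, -0.15 and 0.25. Enolase, which forms phosphoenolpyruvate, was measured by 4 probes. The alpha and beta (muscle) enolase probes had shifts of 0.43 ± 0.36 and 0.66 ± 0.47 at 250 ng/L, and the bright probe of unnamed type had one of -0.17 ± 0.31. Beta enolase gave -0.97, -0.06, -0.60, -0.75 and -0.99 in controls, 1.23, -0.92, -0.02, -0.42 and -1.0 at the low dose and 1.16, -0.70, -0.27, -1.16 and 0.89 at the high dose. Its 3 highest arrays, array 1 at 50 ng/L and arrays 1 and 5 at 250 ng/L, were also the 3 highest for alpha enolase (0.47, 0.95 and 0.47, with all others at -0.07 or below).

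The enzymes that work only in gluconeogenesis came to 10 probes of 5 enzymes, and 8 probes were tested. At 250 ng/L the median shift was -0.34 with 7 of 8 probes below 0, and at 50 ng/L it was -0.09 with 6 below 0, none past the threshold. Over all probes the medians were -0.05 and -0.01, with 45.0% and 49.0% above 0. Fructose-1,6-bisphosphatase held 4 of the 8 probes and glucose-6-phosphatase 2, on 1 contig. Leaving out 1 array at a time gave medians of -0.49 to -0.24 at 250 ng/L, and other scalings gave -0.43 to -0.25. Within slides the median was -0.39 and -0.15, with 3 of 8 probes above 0 in each.

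Cytosolic phosphoenolpyruvate carboxykinase, which opens gluconeogenesis from oxaloacetate, gave 1.95, 2.88, 2.80, 3.53 and 3.29 in controls, 2.88, 2.62, 2.88, 2.70 and 3.09 at the low dose and 3.47, 2.09, 2.80, 1.84 and 2.26 at the high dose. The controls alone spanned nearly the whole range, and the shifts were -0.06 ± 0.32 and -0.40 ± 0.32. Its second probe was well above background on 1 array. The mitochondrial form had shifts of 0.06 ± 0.38 and -0.28 ± 0.38. Both forms had opposite signs on the slides at 250 ng/L: the cytosolic shift was 0.37 within slide 1 and -1.15 within slide 2, and the mitochondrial one 0.49 and -1.09.

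Fructose-1,6-bisphosphatase, which bypasses phosphofructokinase, had 4 tested probes whose shifts differed in sign. The 3 bright probes had shifts of -0.27 to -0.22 at 50 ng/L and of -0.55, -0.47 and -0.44 at 250 ng/L (lowest unadjusted p = 0.0369, adjusted p = 0.33). At 250 ng/L they ran from -0.77 to -0.72 within slide 1 and from -0.39 to -0.15 within slide 2. The brightest of them gave 4.35, 4.36, 3.88, 4.03 and 4.31 in controls, 3.36, 4.44, 4.23, 3.5 and 4.28 at the low dose and 3.83, 3.18, 3.75, 3.60 and 4.23 at the high dose. Here 4 of the 5 high-dose arrays lay below every control. The remaining probe, a dim one on contig 10470, had shifts of 0.81 ± 0.77 and 1.40 ± 0.77, and its arrays spanned a 20.3-fold range. Glucose-6-phosphatase, which releases free glucose to the blood, gave 4.42, 4.69, 4.35, 4.58 and 3.79 in controls, 4.95, 4.35, 4.22, 3.88 and 3.88 at the low dose and 3.70, 3.82, 4.43, 4.25 and 4.27 at the high dose on the brighter of 2 probes. The groups overlapped, with shifts of -0.11 ± 0.24 and -0.27 ± 0.24. The second probe of the same contig had shifts of -0.07 ± 0.35 and -0.01 ± 0.35.

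**Figure D3:**
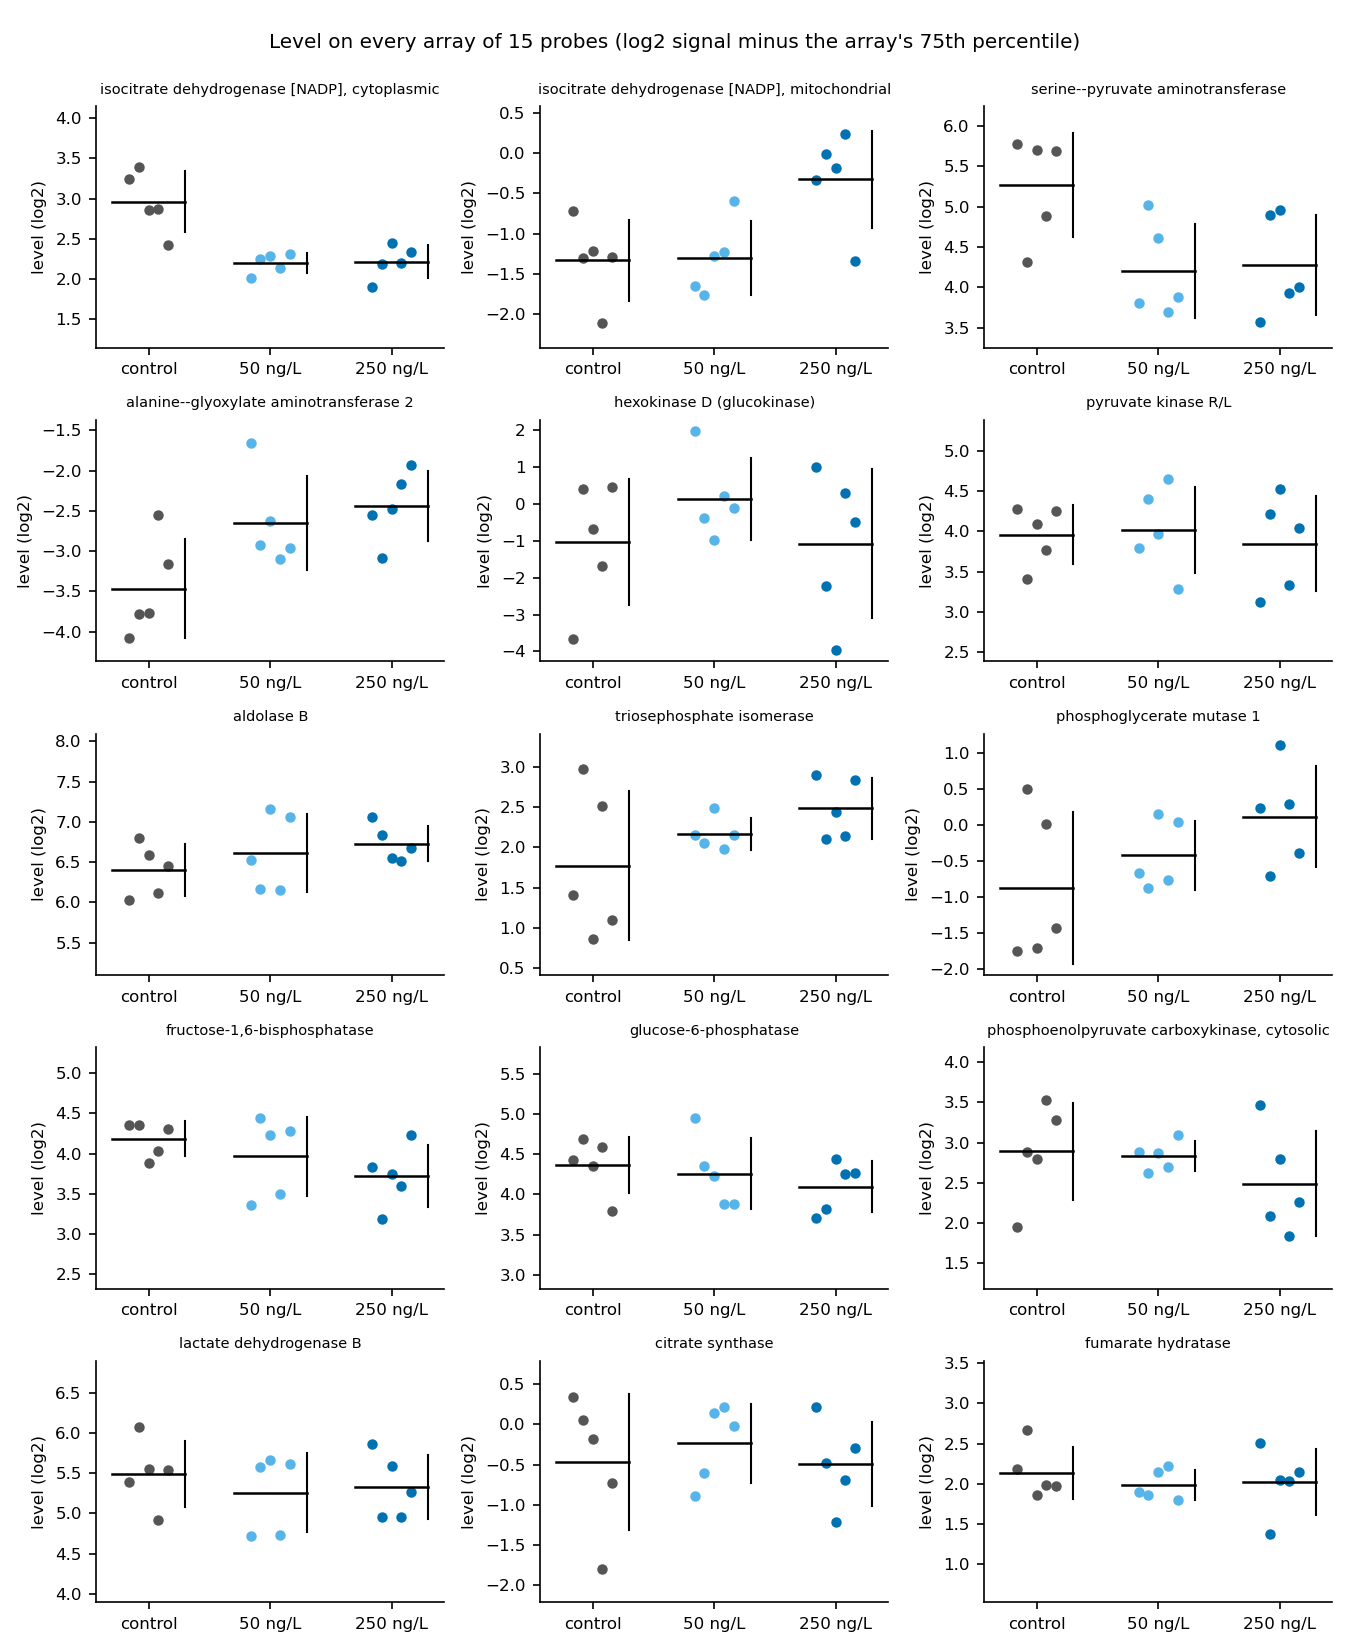
Level (log2 signal minus the array's 75th percentile) of 15 probes on every array; points are arrays in order of their number, horizontal bars group means and vertical bars 1 SD (n = 5 a group). The plot shows the brightest probe of each enzyme, except that contig 12476 stands for mitochondrial isocitrate dehydrogenase; vertical axes differ between panels. Groups overlap in every panel except cytoplasmic isocitrate dehydrogenase, whose highest 50 ng/L array (2.31) lies below the lowest control (2.42).

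At the pyruvate branch points 9 of 12 probes were tested, with medians of -0.16 at 50 ng/L and 0.07 at 250 ng/L and 0 past the threshold. Within slides the median at 50 ng/L was -0.53 (1 of 9 above 0) and 0.07 (7 of 9), and at 250 ng/L both slides were below 0 (-0.07 and -0.11), against the sign over all arrays. Over all probes the slides gave -0.11 and 0.06 at 50 ng/L and -0.07 and -0.0024 at 250 ng/L. Lactate dehydrogenase B, the enzyme whose allele frequencies follow latitude along the Atlantic coast in this species, gave 5.39, 6.07, 5.55, 4.91 and 5.53 in controls, 4.72, 5.57, 5.66, 4.73 and 5.61 at the low dose and 5.86, 4.95, 5.59, 4.95 and 5.26 at the high dose. The groups overlapped and the shifts were -0.23 ± 0.27 and -0.17 ± 0.27, with intervals that left out a 2-fold difference (-0.82 to 0.35 and -0.75 to 0.42). Its second probe had shifts of 0.09 ± 0.36 and 0.17 ± 0.36. Pyruvate dehydrogenase, the gate into the citrate cycle, was measured in its E1 alpha, E1 beta and E2 subunits. The brightest E1 beta probe stood at 0.85 ± 0.55 (SD, n = 5) in controls, 0.38 ± 0.49 at the low dose and 1.0 ± 0.39 at the high dose. The 2 tested E1 beta probes had opposite signs at 50 ng/L (-0.47 for the brightest and 0.43 for the other). At 250 ng/L they had shifts of 0.15 and 0.07. The E2 probe on contig 9161 had shifts of -0.27 ± 0.23 and -0.36 ± 0.23, and the other tested E2 probe -0.01 and 0.16. E1 alpha, with a pooled SD of 1.15, had shifts of -0.20 ± 0.66 and -0.18 ± 0.66. The E1 alpha shift at 50 ng/L was -2.06 within slide 1 and 1.05 within slide 2. The regulatory subunit of pyruvate dehydrogenase phosphatase had 2 tested probes, with shifts of -0.11 and -0.16 at 50 ng/L and -0.01 and 0.31 at 250 ng/L. Pyruvate dehydrogenase kinase 1, which switches the complex off, was well above background on 1 array and was not tested.

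The citrate cycle enzymes came to 14 probes of 8 enzymes, 13 of them tested, with medians of -0.08 and -0.11. Both medians changed sign between slides, at -0.69 (2 of 13 above 0) and 0.12 (9 of 13) at 50 ng/L and -0.27 (4 of 13) and 0.11 (7 of 13) at 250 ng/L. Over all probes the slides gave -0.11 and 0.06 at 50 ng/L and -0.07 and -0.0024 at 250 ng/L. The smallest p of the pathway at each dose belonged to cytoplasmic NADP-dependent isocitrate dehydrogenase, which was counted with this group but is not an enzyme of the cycle proper. Its adjusted p was 0.152 at 50 ng/L and 0.0531 at 250 ng/L in the limma fit. The NADP-dependent isocitrate dehydrogenases oxidise isocitrate outside the main cycle reaction and yield NADPH for lipid synthesis and redox defence. At 250 ng/L they had the smallest p-values among the enzymes of this group, with opposite signs in the cytoplasmic and the mitochondrial enzyme. The group's remaining enzymes had adjusted p-values of 0.574 or more there in the limma fit.

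Cytoplasmic NADP-dependent isocitrate dehydrogenase (contig 12465) was lower in mean level at both doses. The controls gave 3.24, 3.39, 2.86, 2.87 and 2.42, the 50 ng/L arrays 2.01, 2.25, 2.28, 2.14 and 2.31, and the 250 ng/L arrays 1.90, 2.19, 2.45, 2.20 and 2.34. All arrays at 50 ng/L lay below all controls, the single probe of the 86 whose groups did not overlap there (1.16%, beside 1.19% of all probes), and at 250 ng/L the highest array passed the lowest control by 0.03. The shifts were -0.76 ± 0.19 (adjusted p = 0.152) and -0.74 ± 0.19 (adjusted p = 0.0531, just short of the threshold) in the limma fit, a 1.69-fold and a 1.68-fold lower level. Between the doses the shift was 0.02 ± 0.19. In a contrast of the mean of both doses against control, chosen after seeing the data, it was -0.75 ± 0.17 with an adjusted p of 0.0277, the 1 member of 86 past the threshold where 1.53% of all probes were. At 250 ng/L the probe passed under 5 of 27 alternatives. These were normexp background (adjusted p = 0.0179), quantile normalization (0.0119), the values in the authors' deposited table (0.0135), only probes above background on all 15 arrays (0.0488) and without control array 5 (0.0154). At 50 ng/L it passed under 3 of 27: quantile normalization (0.0314), the authors' deposited table (0.0411) and without control array 5 (0.038). With the slide as a block its adjusted p was 0.184 at 50 ng/L and 0.0547 at 250 ng/L, and with array weights 0.184 and 0.0611. Control array 5 was the lowest control, so leaving it out enlarged both shifts. Over all alternatives the adjusted p of this probe ran from 0.0119 to 0.535 at 250 ng/L and from 0.0314 to 0.676 at 50 ng/L, and its shift stayed below 0. Within slide 1 the shifts were -1.19 and -1.14 and within slide 2 -0.48 and -0.45. Exocrine pancreas probes mostly lay above control at both doses (49 and 51 of 60) and leukocyte probes below (10 and 8 of 12). The summed exocrine signal ran from 46.5 to 783 in controls, 228 to 1705 at the low dose and 299 to 2326 at the high dose. The part of these cell types in the lower isocitrate dehydrogenase level was not tested.

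Mitochondrial NADP-dependent isocitrate dehydrogenase had 4 probes, of which 3 were tested, each with a higher mean at the high dose than in controls and with shifts of -0.15 to 0.03 at the low dose. On contig 12476 the control levels were -0.72, -1.31, -1.22, -2.12 and -1.29, those at 50 ng/L -1.65, -1.77, -1.28, -1.23 and -0.59, and those at 250 ng/L -0.33, -0.01, -0.18, 0.24 and -1.33. In the high-dose group 4 arrays lay above every array of both other groups and 1 among them. The shift was 1.0 ± 0.32 against control (2.01-fold, adjusted p = 0.147) and 0.98 ± 0.32 against 50 ng/L (adjusted p = 0.292) in the limma fit. Against control it passed under 1 of 27 alternatives, without array 5 of the 250 ng/L group (1.26, adjusted p = 0.0358). Its adjusted p there ran up to 0.517. Array 5 was the lowest of that group, so leaving it out enlarged the shift. Within slides the shift was 0.84 and 0.99 against control, and 1.53 and 0.49 against 50 ng/L. On contig 12477 all arrays at 250 ng/L (1.28, 0.72, 1.14, 0.84 and 1.19) lay above all at 50 ng/L (0.41, 0.67, 0.54, 0.30 and 0.36), the 1 probe of 86 whose groups did not overlap in that comparison (1.16%, beside 2.91% of all probes). Its controls (0.06, 0.63, 0.38, 1.27 and 0.33) overlapped with both. The shift there was 0.50 ± 0.21 against control (adjusted p = 0.32) and 0.58 ± 0.21 against 50 ng/L (adjusted p = 0.423). The third probe, on contig 12469, had shifts of 0.60 ± 0.45 against control and 0.75 ± 0.45 against 50 ng/L. Within slides these were 1.01 and 0.12 against control, and 1.72 and -0.10 against 50 ng/L.

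The other cycle enzymes had shifts between -0.34 and 0.06 at 250 ng/L. Citrate synthase, which lets acetyl-CoA into the cycle, gave 0.34, 0.05, -0.18, -1.80 and -0.73 in controls, -0.89, -0.61, 0.14, 0.22 and -0.02 at the low dose and 0.21, -0.48, -1.21, -0.69 and -0.29 at the high dose, with shifts of 0.23 ± 0.38 and -0.03 ± 0.38. Fumarate hydratase, the step that makes malate, had shifts of -0.15 ± 0.22 and -0.11 ± 0.22. The alpha and beta subunits of NAD-dependent isocitrate dehydrogenase, the enzyme of the cycle proper, had shifts of -0.01 and 0.01 at 50 ng/L and of -0.31 ± 0.24 and -0.29 ± 0.19 at 250 ng/L. Malate dehydrogenase had shifts at 250 ng/L of -0.16 and 0.04 for its cytoplasmic form and of -0.34, -0.18 and 0.06 for its mitochondrial form.

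**Figure D4:**
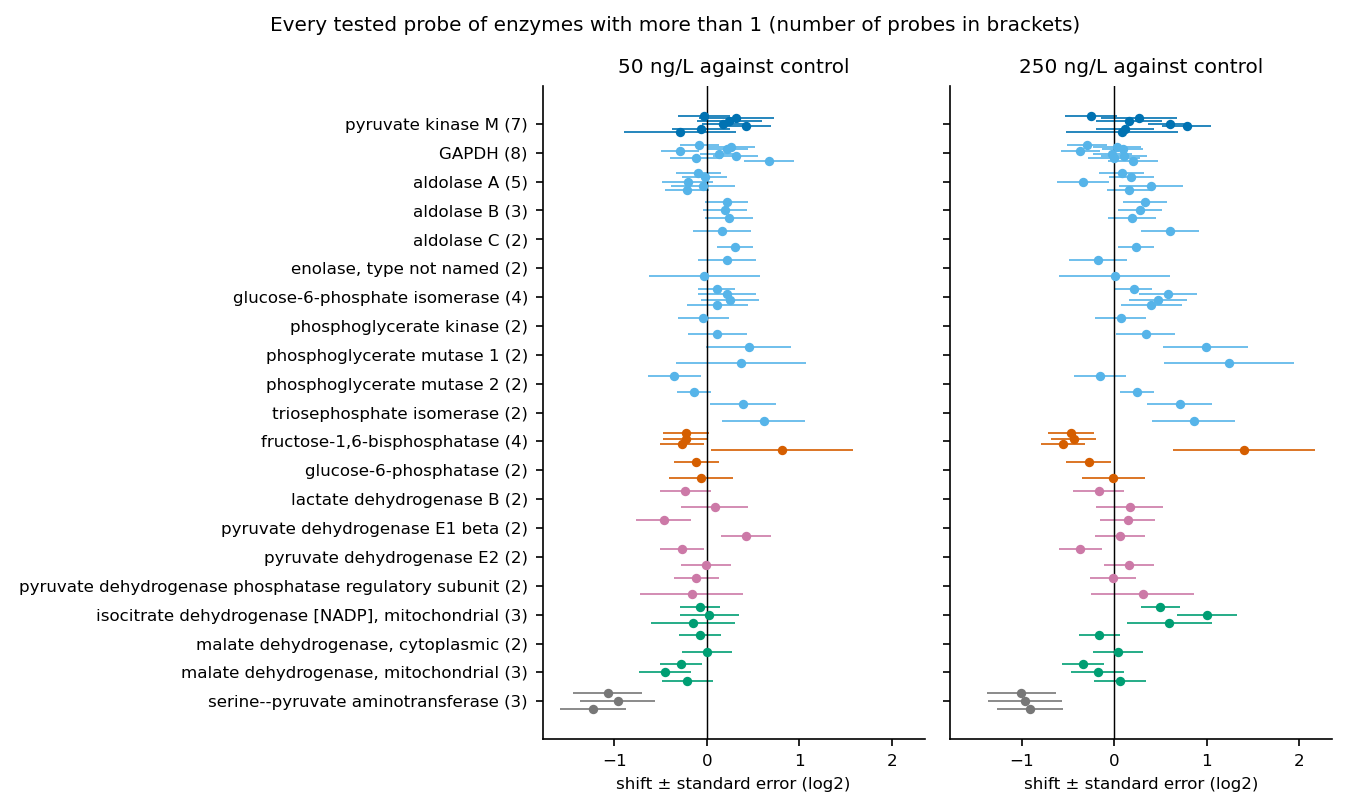
Shift (log2, horizontal axis) with its standard error for every tested probe of the 21 enzymes with more than 1 tested probe, at 50 ng/L (left) and 250 ng/L (right) against control; colours give the role as in the plot by enzyme. The 3 probes of serine--pyruvate aminotransferase lie together near -1 and the 8 of GAPDH near 0 at 250 ng/L, while 1 of the 4 fructose-1,6-bisphosphatase probes (1.40) lies apart from the other 3.

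From glucose 6-phosphate 2 probes lead to the pentose phosphate pathway. Glucose-6-phosphate dehydrogenase, its NADPH-forming entry, had shifts of 0.11 ± 0.36 and 0.47 ± 0.36, and transaldolase, which returns sugars to glycolysis, shifts of -0.37 ± 0.28 and 0.08 ± 0.28.

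Among the 11 probes that met the rule by name alone were further shifts with small p. Serine--pyruvate aminotransferase, the liver enzyme that turns glyoxylate into glycine and is named for its pyruvate substrate, had 3 probes on 2 contigs with shifts of like size. Its brightest probe, on contig 17798, gave 5.77, 4.32, 5.71, 4.88 and 5.69 in controls, 3.81, 5.02, 4.61, 3.69 and 3.88 at the low dose and 3.57, 4.89, 4.97, 3.93 and 4.0 at the high dose. Control arrays 2 and 4 lay among the exposed arrays, while the other 3 controls lay above every exposed array. The shifts were -1.07 ± 0.37 (adjusted p = 0.773) and -1.0 ± 0.37 (adjusted p = 0.229) in the limma fit. The other probe of that contig followed it closely, with an SD of 0.14 for the difference of the 2 probes against 0.76 and 0.79 for each alone. Pairs on other contigs agreed less, such as phosphoglycerate mutase 1 (0.73 against 1.25 and 0.84) and muscle pyruvate kinase on contig 17236 (0.49 against 0.41 and 0.47). On contig 17797 the third probe of this aminotransferase gave shifts of -1.23 ± 0.36 (adjusted p = 0.374) and -0.91 ± 0.36 (adjusted p = 0.269). At 50 ng/L it passed under 1 of 27 alternatives, without control array 2 (-1.54, adjusted p = 0.0372), and its adjusted p ran up to 0.891. At 250 ng/L it passed with array weights (-1.24, adjusted p = 0.0431) and without control array 2 (-1.22, adjusted p = 0.0496). Control array 2 was its lowest control (0.19 against 1.47 to 1.97), so leaving it out enlarged both shifts. That array also had the lowest exocrine pancreas signal of all. Without it and the array with the highest signal, an alternative added after seeing the data, contig 17797 passed at both doses (adjusted p = 0.0213 and 0.0172). The fits without 1 and without 2 arrays both leave out control array 2, so the second is not a separate check. At 50 ng/L the shift of contig 17797 was -1.54 in each. Within slide 1 its shifts were -0.79 and -0.04, and within slide 2 -1.52 and -1.74.

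Alanine--glyoxylate aminotransferase 2, a mitochondrial enzyme of the same reaction, had the opposite sign. Its controls gave -4.08, -3.78, -3.76, -2.55 and -3.16, the 50 ng/L arrays -1.66, -2.93, -2.63, -3.10 and -2.96, and the 250 ng/L arrays -2.55, -3.08, -2.48, -2.17 and -1.93. Control array 4 lay inside the exposed range and the other 4 below every exposed array. The shifts were 0.81 ± 0.33 (adjusted p = 1) and 1.02 ± 0.33 (adjusted p = 0.157) in the limma fit. At 250 ng/L it passed under 2 of 27 alternatives, without control array 4 (1.25, adjusted p = 0.0465) and with array weights (1.21, adjusted p = 0.0296). Its adjusted p there ran up to 0.409. Control array 4 was the control inside the exposed range, so leaving it out enlarged the shift. D-dopachrome tautomerase, a relative of macrophage migration inhibitory factor, lay lower on all arrays at 250 ng/L (3.12, 2.79, 3.30, 3.12 and 3.24) than in controls (3.54, 3.68, 3.38, 3.57 and 3.36), with a shift of -0.39 ± 0.19 (adjusted p = 0.375). With contig 17238 this made 2 of 86 probes (2.33%) whose groups did not overlap at 250 ng/L, beside 4.39% of all probes. Macrophage migration inhibitory factor itself had the smallest spread of the 86 probes, a pooled SD of 0.20, and shifts of 0.06 ± 0.17 and 0.04 ± 0.17. The other 5 enzymes of this group (3-mercaptopyruvate sulfurtransferase, N-acetylneuraminate pyruvate lyase, deoxyribose-phosphate aldolase, glyoxylate/hydroxypyruvate reductase and sphingosine-1-phosphate lyase 1) had shifts of -0.34 to 0.02 at 50 ng/L and -0.44 to 0.31 at 250 ng/L.

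Spread between arrays differed widely from enzyme to enzyme. The median pooled SD within groups was 0.44 over the 86 probes and 0.47 over all probes tested. It was over 1 for 6 probes (glucokinase, the dim fructose-1,6-bisphosphatase probe, 1 probe each of phosphoglycerate mutase 1, pyruvate dehydrogenase E1 alpha, muscle pyruvate kinase and the untyped enolase) and under 0.5 for 49. The 14 untested probes were well above background on at most 4 arrays. They were 4 of aldolase A, 3 of muscle pyruvate kinase and 1 each of muscle phosphofructokinase, fructose-1,6-bisphosphatase 2, cytosolic phosphoenolpyruvate carboxykinase, mitochondrial isocitrate dehydrogenase, pyruvate dehydrogenase E1 beta, pyruvate dehydrogenase E2 and pyruvate dehydrogenase kinase 1. On 3 contigs a dim probe lay beside a brighter one. For aldolase A on contig 10475 1 probe was well above background on all 15 arrays and the other on 5, and for pyruvate dehydrogenase E1 beta on contig 17219 and E2 on contig 9160 on 15 arrays and on 0.

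A list of 47 further probes of carbohydrate metabolism (glycogen, glycerol and galactose metabolism, the pentose phosphate pathway, other citrate cycle subunits, transaminases and transporters) was read beside these. Of its 44 tested probes, 0 passed in the limma fit at either dose, where 0.537% and 2.69% of all probes did. The unadjusted p was under 0.05 for 1 and 8 of the 44, beside 4.04% and 13.5% of all probes. Their median shifts were 0.02 and -0.0048. Closest was a probe of dihydrolipoyllysine succinyltransferase, the E2 subunit of the 2-oxoglutarate dehydrogenase of the citrate cycle, on contig 9164, with shifts of -0.40 ± 0.17 (adjusted p = 1) and -0.62 ± 0.17 (adjusted p = 0.0824). It was followed there by 2 probes of NADP-dependent alcohol dehydrogenase, which reduces aldehydes (-0.77 ± 0.24 and -0.67 ± 0.22, adjusted p = 0.132 and 0.164), and UTP--glucose-1-phosphate uridylyltransferase 2, which makes the UDP-glucose for glycogen (-0.65 ± 0.22, adjusted p = 0.184). At 50 ng/L the next smallest p belonged to glycogen debranching enzyme, which frees glucose at glycogen's branches (0.80 ± 0.44), and alanine aminotransferase, which turns alanine into pyruvate (-0.35 ± 0.19). Muscle glycogen phosphorylase, which splits glycogen, followed (1.12 ± 0.67), and each had an adjusted p of 1 in the limma fit. Other tested probes of these enzymes did not all share the sign. At 50 ng/L another muscle glycogen phosphorylase probe had a shift of -0.15 ± 0.25, and the other alanine aminotransferase probes had -0.38, -0.33 and 0.60. At 250 ng/L the other alcohol dehydrogenase probes had -0.58 and 0.33, and the other succinyltransferase probe -0.01.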

How the data were processed

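RNA of 15 liver samples was hybridised to 1-colour Agilent arrays. The deposited files hold spot intensity values that, per the file headers, Agilent's Feature Extraction software read from the scans, with background subtraction and no normalization between arrays. A second table, deposited by the authors, holds log2 values of the same arrays; no label or header says how these were made, and they served as an alternative (0 of its columns were left unmatched). The log2 processed signals of the 2 spots of a probe were averaged without outlier spots and control probes, and the array's 75th percentile was subtracted. Probes well above background on fewer than 5 arrays were not tested. Groups were compared with limma 3.58.1 (R 4.3.3) by lmFit and eBayes over all 15 arrays, with 12 residual degrees of freedom and Benjamini-Hochberg adjustment over 6145 probes within a comparison. Contigs are those of the array's annotation, and probes of 1 enzyme were fitted separately; near-identical copies could share signal. The number of arrays limits the precision. The p-values set differences between group means against the spread between arrays within groups, which eBayes moderates over all probes tested.

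The members, lists and naming rule were chosen with earlier results of these data known. The rule named probes past the threshold (0), the 4 with the smallest p in each comparison and the brightest probe of each enzyme; levels on each array are written out for the members the results turn on, and the other enzymes are given by shifts and ranges. Further probes (contigs 10470, 10471 and 12469 among them) are named as second probes of those enzymes. Normexp, as an alternative, used median spot signals and local background medians with an offset of 50, since the files hold no mean signals. Other alternatives were quantile, cyclic loess and median scaling, other filters, the slide as a block or each slide alone, array weights, leaving out each array and fitting 2 groups only. The fitting code was tested on simulated data.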

Additional observations from a re-analysis of the deposited data

Results flagged for a closer look

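For the 48 named probes tested, the highest or lowest of the 5 arrays of each group was set against the other 4 by Dixon's gap, with a critical value of 0.71 of the group's range. Chance marks about 1 in 20 groups, and 8 of the 144 groups were marked.

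The brightest GAPDH probe was marked on array 3 at 50 ng/L, with a level of 5.59 against 4.99 to 5.14 on the others, and on array 2 at 250 ng/L, with 4.39 against 4.97 to 5.18. In the control group, array 2 stood apart in 3 enzymes. It was high in aldolase A (5.57 against 4.72 to 4.90 on contig 10475) and in glucose-6-phosphate isomerase (1.06 against 0.15 to 0.40), and low in serine--pyruvate aminotransferase (0.19 against 1.47 to 1.97 on contig 17797). The last of these probes was also marked on array 3 at 50 ng/L (0.86 against -0.01 to 0.06). Muscle-type pyruvate kinase on contig 17238 was low on array 2 at 50 ng/L (-6.32 against -5.04 to -4.77), and transaldolase on control array 1 (-0.65 against 0.27 to 0.62). No cause of these values was tested.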

How the results depend on the processing

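No member passed in the limma fit to all 15 arrays, and the counts moved from 0 as follows. At 50 ng/L 1 member passed with quantile normalization and with the authors' deposited values (cytoplasmic isocitrate dehydrogenase), and 1 without the 2 arrays at the ends of exocrine pancreas signal (serine--pyruvate aminotransferase). At 250 ng/L 1 passed with normexp background, quantile normalization, the authors' deposited values and with only probes above background on all 15 arrays (cytoplasmic isocitrate dehydrogenase each time), and 1 without the exocrine ends (serine--pyruvate aminotransferase). Control array 2, whose removal alone also let this aminotransferase pass at either dose, was 1 of those 2 arrays. Array weights gave 5 there, where they raised the calls over all probes from 165 to 321: 2 of serine--pyruvate aminotransferase and 1 each of muscle pyruvate kinase, alanine--glyoxylate aminotransferase 2 and triosephosphate isomerase (contig 19072). Between the doses every alternative gave 0. Leaving out 1 array at a time gave 0 to 1 members at either dose. Of the 44 carbohydrate companions 0 passed. At 250 ng/L quantile normalization and the authors' deposited values gave 2, median centring 1, array weights 4, and leaving out 1 array 0 to 3. Of all probes, these settings called 3.17, 3.14, 2.77 and 5.22% there, and leaving out 1 array 2.02 to 3.11%. The median member shift over all alternatives ran from -0.191 to 0.130 at 50 ng/L, -0.011 to 0.142 at 250 ng/L and -0.107 to 0.311 between the doses, with sign changes in each. Normexp moved the median of all probes to 0.187, 0.091 and -0.146 in the 3 comparisons. Among 3879 alternative values for named members 247 changed sign, none of them past the threshold. No paired analysis was possible because the labels give no replicate numbers. The shifts of probes close to background are the least certain.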
